A study of Caenorhabditis elegans with 2 samples.

Results

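The genes described here are the nuclear-encoded genes of the mitochondrial respiratory chain and ATP synthase, set against a map of the places in the Caenorhabditis elegans genome where the zinc finger protein CCCH-3 was recovered. They were chosen by name alone: every nuclear protein-coding gene of the Ensembl annotation of WBcel235 whose name begins with nuo-, nduf-, ndub-, nduv-, sdha-, sdhb-, sdhd-, ucr-, isp-, cyc-, cox- or atp-. This gave 55 of 19973 nuclear protein-coding genes. Chromatin immunoprecipitation with sequencing was done on whole young adult worms of strain OP628, 70 hours old and of mixed sex, in 2 biological replicates that form the only group. The strain carries the integrated fosmid transgene wgIs628, which holds ccch-3 with a TY1 EGFP 3xFLAG tag and unc-119(+), on an unc-119 (tm4063) background, and the antibody was raised against green fluorescent protein. The transgene is carried besides the worm's own ccch-3 locus, so the map is that of the tagged product of an added copy, in all tissues together. No untagged worms were analysed here, so there was no second group to compare and no test was run.

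The respiratory chain passes electrons from NADH and succinate to oxygen and stores the energy as a proton gradient across the inner mitochondrial membrane. Complex I (NADH dehydrogenase) and complex II (succinate dehydrogenase) feed electrons to ubiquinone, complex III passes them to cytochrome c, complex IV (cytochrome c oxidase) hands them to oxygen, and complex V (ATP synthase) uses the gradient to make ATP. Most subunits are encoded in the nucleus and a few in mitochondrial DNA, so the nuclear genes have to be expressed together with a separate genome. Worm genes of this system are well known from long-lived and stress-sensitive mutants, isp-1, nuo-6 and gas-1 among them.

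The deposited lists rank regions by a signal value, a score of the authors' peak caller, whose scale the sources do not give. Each replicate and the pooled reads have a list of 30000 candidate regions, many of which were never called bound. A further list, labelled optimal, holds 218 peaks thresholded on the irreproducible discovery rate (IDR), here called reproducible peaks. This rate compares the order of regions between replicates. How the optimal list was chosen is not known from the lists. A place in it therefore does not by itself show a high rank in both replicates. The 218 peaks are the regions of rank 1 to 218 in the pooled list, where rank 1 has the highest signal value. A region was assigned to a gene when its summit lay in the promoter window, which reaches from 1000 bp before the gene start to 200 bp past it. No region of replicate 1 had a q-value (the caller's false discovery rate) at or under 0.05, while 202 regions of replicate 2 did and 229 of the pooled list. A value from the pooled or the reproducible list has no replicate error.

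A reproducible peak lay in the window of 2 of the 55 genes, ucr-2.1 of complex III and atp-5 of complex V, where 0.881% of all nuclear protein-coding genes had one. The next highest genes in the pooled list were cox-5B, nduf-2.2, cox-5A and atp-4, all within the upper 1000 regions, so that 6 of 55 genes (10.9%) had a summit of rank 1 to 1000 against 2.31% of all genes. Within the upper 5000 regions were 11 of 55 (20%) against 7.8%. A candidate of any rank lay at 18 of 55 genes in the pooled list (32.7%), near the 34.9% of all genes. Genes with a candidate were thus about as frequent as elsewhere, and their ranks were higher, with a median of 3985 over the 18 genes against 13412 over the 6975 genes with a pooled summit. In replicate 1 alone the median over 22 genes was 13595, against 13125.5 over all genes with a summit there, and in replicate 2 alone it was 2926 over 17 genes, against 12876. The higher ranks were therefore a feature of the pooled list and of replicate 2, and the median of replicate 1 was near that of all genes. The median in the pooled list also depended on the window and on shared summits: with 2000 bp upstream to 500 bp downstream it was 8634.5 over 34 genes, against 11944 over all genes, and with genes alone at their best summit it was 8993 over 10 genes, against 13821.

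The sequences around 4 of the 5 highest best summits are shown because they are the highest-ranked candidates at these genes; those at ucr-2.1 and atp-5 are reproducible peaks, and those at cox-5A and nduf-2.2 missed the IDR threshold. Each is read 5′ to 3′ on the strand of the respiratory chain gene, from the RefSeq sequence of WBcel235 (ce11), and holds no part of a protein-coding gene. Those of ucr-2.1 and atp-5 have their first base next to the start of the divergent neighbour. Capitals mark matches on either strand to 7 short motifs that are spelled out after the sequences. The stretch for ucr-2.1, chrX:12018044-12018343 on the plus strand, holds the pooled summits at its bases 23 and 230. That for atp-5, chrV:11124054-11124185 on the minus strand, has its summit at base 62. Those for cox-5A, chrIII:12905116-12905256, and nduf-2.2, chrIII:6464453-6464593, both on the plus strand, have theirs at base 71. The last overlaps T26A5.10, annotated as a non-coding RNA gene.
ucr-2.1: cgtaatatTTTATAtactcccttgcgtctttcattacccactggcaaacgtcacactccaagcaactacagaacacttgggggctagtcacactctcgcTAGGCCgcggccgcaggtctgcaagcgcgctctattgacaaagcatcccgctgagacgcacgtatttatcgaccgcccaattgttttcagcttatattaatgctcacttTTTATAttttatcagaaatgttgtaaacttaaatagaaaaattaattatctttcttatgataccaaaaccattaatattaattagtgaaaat
atp-5: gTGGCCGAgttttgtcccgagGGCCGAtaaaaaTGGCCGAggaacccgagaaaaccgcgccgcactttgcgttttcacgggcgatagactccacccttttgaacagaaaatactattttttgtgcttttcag
cox-5A: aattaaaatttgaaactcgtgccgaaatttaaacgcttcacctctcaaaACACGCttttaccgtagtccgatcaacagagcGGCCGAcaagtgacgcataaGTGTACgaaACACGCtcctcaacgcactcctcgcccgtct
nduf-2.2: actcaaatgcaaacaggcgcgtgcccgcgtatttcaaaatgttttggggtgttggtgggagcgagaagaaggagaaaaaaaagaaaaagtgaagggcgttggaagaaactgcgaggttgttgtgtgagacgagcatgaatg

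The motifs were 5 6-mers named in an earlier reading of the reproducible peaks of this experiment together with the E-box and a TATA motif, each spelled out beside its count. The stretch at atp-5 holds GGCCGA more than once, in places as part of TGGCCGA, where it overlaps the reverse complement of CGGCCA. The stretch at cox-5A holds ACACGC on both sides of its summit, with GGCCGA and GTACAC, the latter as GTGTAC, between them. None of the 7 6-mers was found in the stretch at nduf-2.2. Over the 101 bases centred on the best pooled summit of each gene, GGCCGA was present at 2 of 18 summits (11.1%), those of atp-5 and cox-5A, against 1.96% of the 6211 distinct best summits of all protein-coding genes. ACACGC was at 2 of 18 (11.1% against 2.27%), those of ucr-2.1, just outside the printed stretch, and cox-5A. GTACAC was at 2 of 18 (11.1% against 3.06%), those of cox-5A and cox-5B, and CGGCCA at 1 (5.56% against 2.25%), that of atp-5. GGCCTA was at 0 of 18 (against 2.04%), as was the E-box CACGTG (against 1.82%). The TATA motif TATAAA was at 1 (5.56% against 14.3%), that of ucr-2.1. The GGCCTA in the printed sequence of ucr-2.1 lies outside these 101 bases. The peaks at ucr-2.1 and atp-5 were among those from which the first 5 6-mers came, so their matches are not separate evidence. The summits at cox-5A and cox-5B were not among them. Apart from those peaks, GGCCGA and ACACGC were each found at the cox-5A summit only. The 6211 summits were not matched to the 18 in rank or GC content, so the shares are a description only. GC content over the same 101 bases had a mean of 41.7% (SD 9.27 over 18 summits), with 28.7% at the lowest and 57.4%, at cox-5B, at the highest. Over the 6211 summits of all genes it was 34.7% (SD 8.83).

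**Figure D1:**
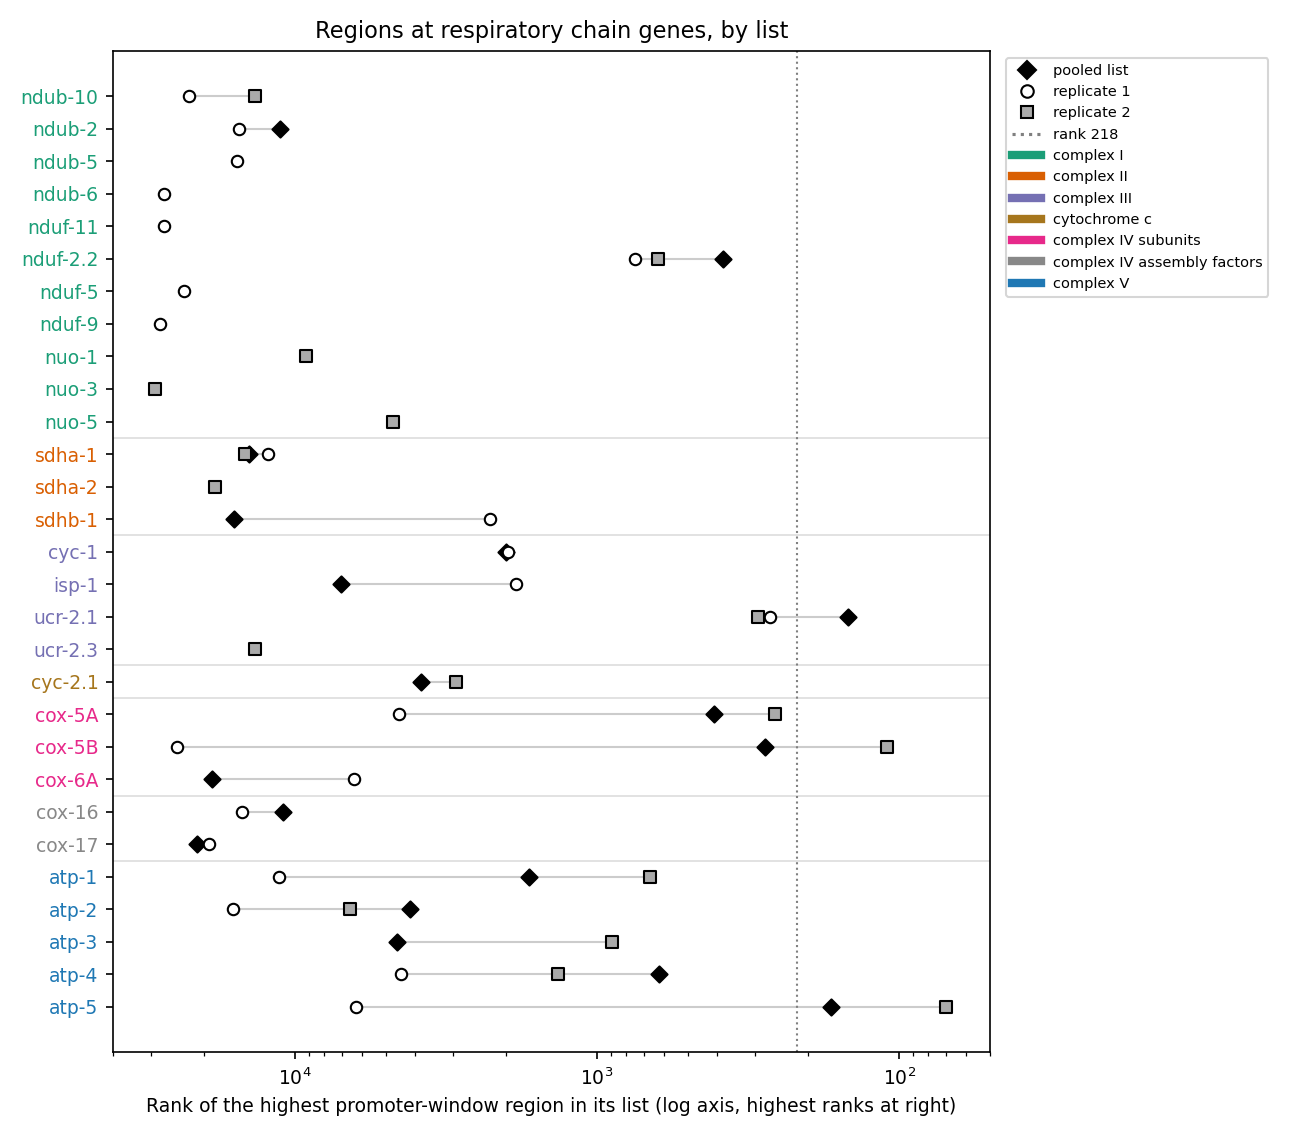
Rank of the highest region in the promoter window of each of the 29 genes with a region in any candidate list, on a log axis with the highest ranks at right. Black diamonds are the pooled list, open circles replicate 1 and grey squares replicate 2, gene names are coloured by complex, and the dotted line is rank 218. Only ucr-2.1 and atp-5 have a diamond to the right of the line, and the 5 atp genes have their circle, where there is one, to the left of their square.

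Complex I had the smallest share of genes with a pooled candidate, 2 of 22 (9.09%, against 34.9% of all genes). In a window from 2000 bp upstream to 500 bp downstream the count was 10 of 22 (45.5%), where 56% of all genes had one. In the main window replicate 1 had a candidate at 8 of 22 (against 34% of all genes) and replicate 2 at 5 of 22 (against 35.2%). In neither replicate was the share of complex I the smallest. nduf-2.2, a paralogue of gas-1 that encodes a core subunit, stood alone in this complex at a high rank. Its summit on chromosome III lay 699 bp upstream of its start, with a signal value of 79.8 and rank 384 in the pooled list. It was outside protein-coding genes, and the printed stretch around it overlaps the non-coding RNA gene T26A5.10. The overlapping region ranked 749 in replicate 1 (signal value 39.3, q-value 0.345) and 628 in replicate 2 (signal value 44.4, q-value 0.292). Both replicates thus placed a region there among their upper 1000. The pooled summit also lay 744 bp upstream of dlc-1, a dynein light chain gene on the other strand, so the promoters of both genes share it. In replicate 1 the summit was 119 bp from the pooled one, 818 bp upstream of nduf-2.2 and 625 bp upstream of dlc-1, the nearer start. The region was not a reproducible peak. It missed the IDR threshold, with a pooled q-value of 0.184. The other gene, ndub-2, had a summit 143 bp upstream at rank 11247, in the 3′ UTR of the preceding gene F44G4.1, and ranked 15348 in replicate 1 with no region in the window in replicate 2.

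A further 9 complex I genes had a candidate in a single replicate or in both but none in the pooled list. nuo-5, which encodes a large iron-sulphur subunit, had one 134 bp upstream at rank 4748 in replicate 2, and nuo-1, the flavin-binding subunit that takes electrons from NADH, one 503 bp upstream at rank 9197 in replicate 2, nearer to the start of rpl-36.A. The others were nuo-3 (rank 28980, replicate 2), ndub-5, ndub-6, nduf-5, nduf-9 and nduf-11 (ranks 15538 to 28052, replicate 1) and ndub-10 (22363 and 13514 in replicates 1 and 2, at different positions). No candidate list had a summit in the window of the remaining 11, which were nuo-2, nuo-4, nuo-6, ndub-3, ndub-7, ndub-8, ndub-11, nduf-6, nduf-7, nduv-2 and nduv-3. Their absence says only that the regions were not among the upper 30000 of a list, and read depth is unknown from these lists.

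Complex II had 2 of 4 genes with a pooled candidate, neither of high rank. sdha-1, one of a pair of genes for the flavoprotein that oxidises succinate, had a summit 565 bp upstream in a coding exon of D2021.4. It ranked 14172 in the pooled list, 12237 in replicate 1 and 14678 in replicate 2. sdhb-1, the iron-sulphur subunit, had one 431 bp upstream, in an intron of cup-15, at rank 15911, with rank 2260 in replicate 1 and no region in the window in replicate 2. The other flavoprotein gene, sdha-2, had a summit only in replicate 2 (rank 18423), and sdhd-1, a membrane anchor, had none.

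In complex III, 3 of 7 genes had a pooled candidate. The highest of all the respiratory chain genes was ucr-2.1, which encodes a core protein of the complex. Its reproducible peak on the X chromosome (12017866 to 12018265, signal value 108, pooled q-value 0.0169, rank 148) had its summit 363 bp upstream of the ucr-2.1 start and 23 bp upstream of nmat-1, a gene that runs the other way. A second pooled summit at rank 819 lay 156 bp upstream of ucr-2.1 and 230 bp upstream of nmat-1. Replicate 1 had both summits, at ranks 267 (signal value 48.3, q-value 0.163) and 619 (signal value 40.6), within 2 bp of the pooled ones. Replicate 2 had a single region with its summit between them, 212 bp upstream, at rank 294 (signal value 51.3, q-value 0.107). The replicates thus both ranked the 385 bp between the genes highly, and they differed in where in it the summit lay. The 2 paralogues of ucr-2.1 did not share this: ucr-2.2 had no candidate in any list, and ucr-2.3 had one in replicate 2 alone, at rank 13577.

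The other complex III genes with a candidate were mostly seen in replicate 1. cyc-1, the gene of cytochrome c1, had a summit 760 bp upstream in a coding exon of C54G4.9, at rank 2007 in the pooled list (signal value 58.8, q-value 0.694). It ranked 1975 in replicate 1 (signal value 33.4, q-value 0.552), and replicate 2 had no region there. isp-1, the Rieske iron-sulphur protein, had one 902 bp upstream in an intron of islo-1, at rank 7039 in the pooled list and 1860 in replicate 1. In replicate 2 the region that overlapped it had its summit outside the window, at rank 11067. Both lie in the body of a neighbouring gene, far from the gene start. ucr-1 and ucr-11 had no candidate.

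Of the cytochrome c genes, cyc-2.1 had a pooled candidate 20 bp downstream of its start, in the 5′ UTR, at rank 3822 (signal value 52.3, q-value 0.811). Replicate 2 had a region at rank 2926 (signal value 34.0, q-value 0.665), and replicate 1 had none. cyc-2.2 had no candidate in any list. A reproducible peak lay just beyond the window of cyc-2.1. Its summit (chromosome IV, 4749854 to 4750253) was 1042 bp upstream of cyc-2.1 and 276 bp upstream of rpl-20, a large-subunit ribosomal protein gene that ends 110 bp before cyc-2.1 on the same strand. It ranked 72 in the pooled list (signal value 138), 94 in replicate 1 and 124 in replicate 2.

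Among the complex IV subunits 3 of 7 genes had a pooled candidate, and cox-5B and cox-5A, which encode nuclear subunits of the oxidase, had the high ranks. cox-5B had a summit 14 bp upstream of its start on chromosome I (9788511 to 9788910), with a signal value of 87.4, rank 278 and a pooled q-value of 0.0883. The region ranked 110 in replicate 2 (signal value 69.1, q-value 0.0102) and 28904 in replicate 1 (signal value 16.5, q-value 0.902), near the end of that list. cox-5A had a summit 305 bp upstream on chromosome III (12904986 to 12905385, signal value 78.6, q-value 0.201, rank 411). It ranked 257 in replicate 2 (signal value 53.1, q-value 0.0916) and 4514 in replicate 1 (signal value 28.7, q-value 0.698). Neither summit lay in the window of another protein-coding gene. Both regions stood high in 1 replicate only. cox-6A had a candidate 764 bp upstream at rank 18768, 62 bp from the snRNA gene F54D8.7, and cox-4, cox-6B, cox-6C and cox-7C had none. Of the 18 best summits this was the only one within 100 bp of a tRNA, snoRNA or snRNA gene.

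The assembly factors of complex IV, which insert haem and copper or mount its subunits, had 2 of 8 genes with a pooled candidate. cox-16 (rank 10947) and cox-17, a copper chaperone (rank 21133), had summits 835 and 631 bp upstream, in introns of syp-2 and ubc-20. Each had a region in replicate 1 and none in the window in replicate 2. cox-10, cox-11, cox-14, cox-15, cox-18 and cox-19 had none in any list.

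In complex V all 5 genes had a pooled candidate, and 4 of the 5 had one in all 3 candidate lists. atp-5, which encodes subunit d of the stalk, had a reproducible peak (chromosome V, 11123924 to 11124323, signal value 103, pooled q-value 0.0269, rank 168). Its summit lay 257 bp upstream of atp-5 and 62 bp upstream of lmtr-3, a Ragulator subunit gene that runs the other way. In replicate 2 this region ranked 70 (signal value 78.6, q-value 0.0102) and in replicate 1 it ranked 6302 (signal value 26.7, q-value 0.74). The summits of the 3 lists lay within 15 bp of the pooled one, and the ranks in the replicates were far apart. This peak is in the reproducible list although replicate 1 ranked it outside its upper 5000.

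atp-4, the coupling factor 6 subunit, had its summit in its own coding sequence, 141 bp downstream of the start, with a signal value of 71.7, a q-value of 0.38 and rank 626. It ranked 4464 in replicate 1 (signal value 28.7, q-value 0.694) and 1351 in replicate 2 (signal value 39.0, q-value 0.495). The ATP synthase genes alpha (atp-1) and beta (atp-2), whose proteins form the catalytic head, had summits 33 and 418 bp upstream. atp-1 ranked 1674 in the pooled list (signal value 60.6, q-value 0.656), 11303 in replicate 1 (23.1 and 0.81) and 667 in replicate 2 (44.0 and 0.305). Its pooled summit is also 157 bp upstream of mcrs-1. In replicate 1 the summit was 132 bp from the pooled one, 25 bp upstream of mcrs-1. atp-2 ranked 4148 (51.4 and 0.817), 16034 (20.8 and 0.851) and 6592 (29.1 and 0.765) in the same order, and had a second summit at rank 4775, 210 bp upstream. Both replicates had 2 summits at atp-2, each within 15 bp of the pooled one. atp-3, the oligomycin sensitivity subunit of the stalk, ranked 4596 in the pooled list with a summit 26 bp downstream in the 5′ UTR, and 892 in replicate 2, with none in replicate 1. In each of the 5 genes the rank was higher in replicate 2 or the region was absent from replicate 1. All 5 best summits of complex V also lay in the window of another protein-coding gene. Over all genes with a pooled summit, 5422 of 6975 had their best summit in no other window.

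**Figure D2:**
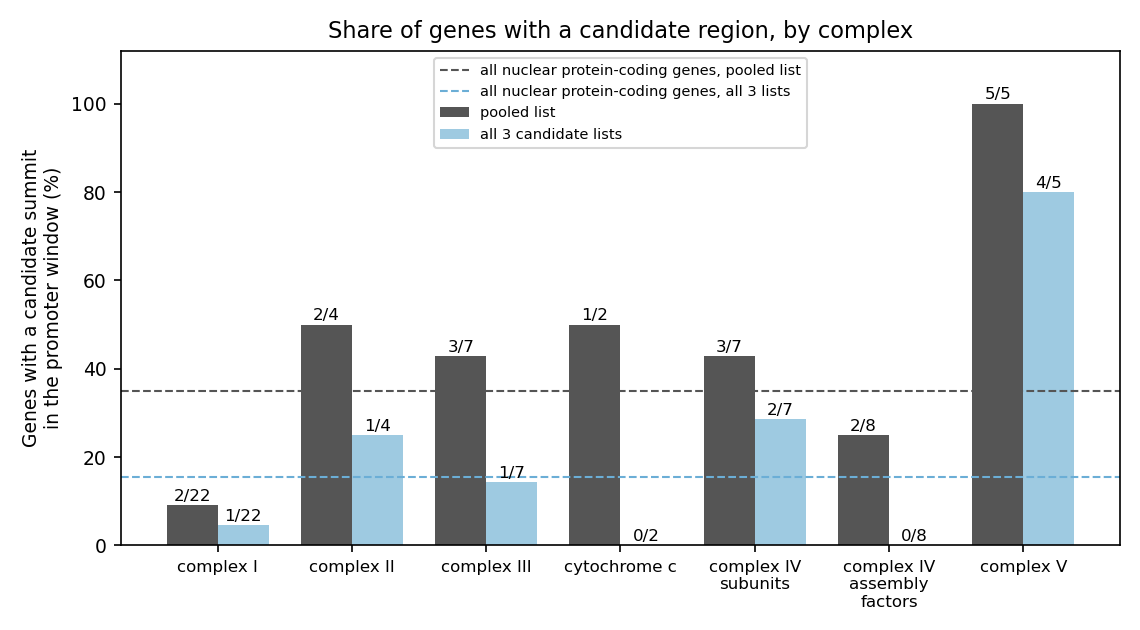
Percentage of each complex's genes whose promoter window holds a candidate summit, in the pooled list (dark bars) and in all 3 candidate lists (light blue bars), with counts above the bars. Dashed lines are the shares over all nuclear protein-coding genes, 34.9% and 15.4%. Complex V stands at 5 of 5 and complex I at 2 of 22.

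Over the 55 genes together, 9 had a summit in the window in all 3 candidate lists (15.4% of all genes did): nduf-2.2, sdha-1, ucr-2.1, cox-5A, cox-5B, atp-1, atp-2, atp-4 and atp-5. Replicate 1 had a summit at 22 genes (34% of all genes) and replicate 2 at 17 (35.2%), and 10 genes had one in both. The 18 best pooled regions were then traced into the replicates by overlap of at least 1 bp. They overlapped a region of replicate 1 in 16 cases and of replicate 2 in 12. Of the 6211 best summits of all genes, 3978 overlapped one of replicate 1 and 4358 one of replicate 2. Regions of both were overlapped in 10 of the 18 cases (55.6%, against 40.9% of the 6211). Of these 10, replicate 2 gave the higher rank in 7. Among all genes with an overlap in both, replicate 2 did so for 52.7%. Among those in the pooled upper 1000, replicate 2 gave the higher rank at 5 of 6 respiratory chain genes (83.3%) and at 65.3% over all genes. ucr-2.1 and nduf-2.2 were the only respiratory chain genes in the upper 1000 of both replicates. Replicate 2 alone placed atp-1, atp-3, atp-5, cox-5A and cox-5B there, and replicate 1 alone placed none. Of all 19973 genes, 403 were in the upper 1000 of replicate 1 and 519 in that of replicate 2.

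**Figure D3:**
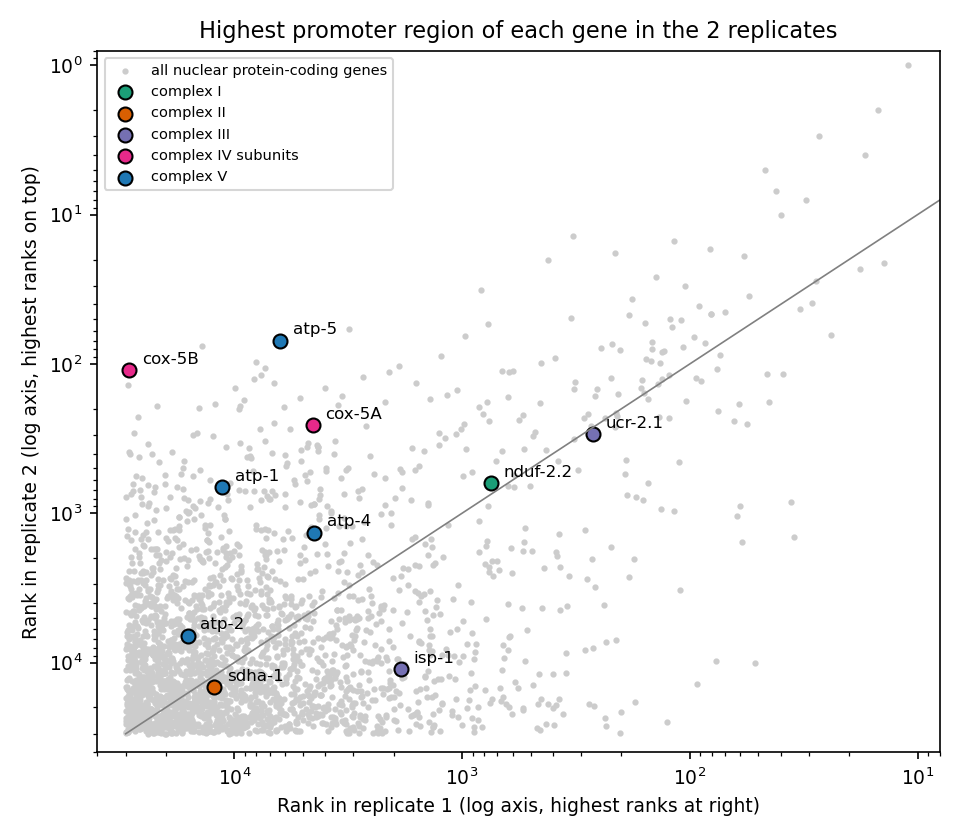
Rank in replicate 1 against rank in replicate 2 of the highest promoter region of each gene that overlaps a region in both lists, on log axes with the highest ranks at top and right. Grey points are all nuclear protein-coding genes, coloured points the 10 respiratory chain genes, and the line marks equal ranks. ucr-2.1 (267 and 294) and nduf-2.2 (749 and 628) lie near the line, and cox-5B (28904 and 110) and atp-5 (6302 and 70) lie far from it.

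Where the summits lay differed from gene to gene. Of the 18 best pooled summits 15 were upstream of the start and 3 downstream, 4 lay within 100 bp of it, 7 over 100 and up to 500 bp away and 7 farther, with a median distance of 390.5 bp. In the annotation of protein-coding genes alone, 8 lay between genes, 3 inside the respiratory chain gene itself (atp-3, atp-4 and cyc-2.1) and 7 inside a neighbour. At 8 genes the best summit lay in the window of another protein-coding gene as well, and at 10 it did not. Of the 6975 genes of the whole annotation with a pooled summit, 5422 had their best summit in no other window. At 6 respiratory chain genes the best summit was nearer to the start of another gene, namely ucr-2.1, atp-5, atp-2, isp-1, cox-16 and sdhb-1. Both reproducible peaks were of this kind. The share over all genes was not counted for this last measure. The regions are mostly 400 bp wide and the sonicated fragments 200 to 800 bp long, so which gene of a divergent pair a region belongs to cannot be told apart. By the arrangement of genes, a pooled summit lay at 11 of 33 genes whose upstream neighbour is divergent (33.3%), at 6 of 18 whose neighbour ends within 500 bp on the same strand (33.3%) and at 1 of 4 with a more distant neighbour on that strand, where the shares over all genes were 36.1%, 33.9% and 34.0%. Of the 15 divergent genes of complex I, 1 had one.

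**Figure D4:**
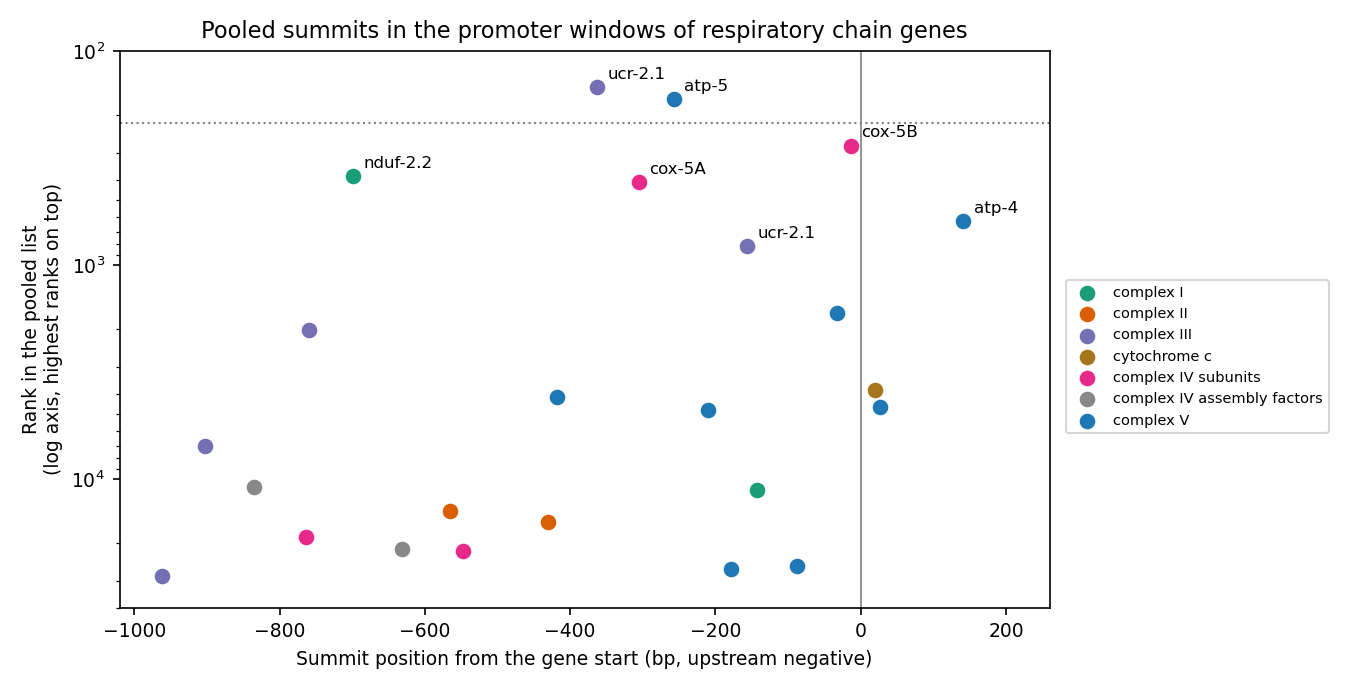
Position of the 24 pooled summits in the promoter windows, in bp from the gene start with upstream negative, against rank in the pooled list on a log axis with the highest ranks on top, coloured by complex. The dotted line is rank 218, and names are given for summits in the upper 1000. The summits of ucr-2.1 and atp-5 above the line lie 363 and 257 bp upstream, and that of cox-5B lies 14 bp upstream.

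Genes of the same pathway under other names gave a further reproducible peak. It lay at sco-1, which encodes a copper chaperone for the assembly of complex IV, with its summit 171 bp upstream, a signal value of 126 and rank 101. It ranked 162 in replicate 1 and 128 in replicate 2, with summits 289 and 233 bp upstream, and so stood in the upper 218 regions of both. Of 21 such genes 7 had a pooled candidate (33.3%, near the 34.9% of all genes) and 4 had one in all 3 lists (19.0% against 15.4%). By complex, a grouping made after the values were seen, 1 of 11 further complex I genes had a pooled candidate (ndua-5, rank 25236). This makes 3 of 33 for both namings together. nduc-2, another of the 11, had a candidate in replicate 2 alone, 844 bp upstream at rank 871. For ATP synthase subunits 2 of 5 had a pooled candidate, asb-2 (rank 753) and asg-2 (rank 19563), which makes 7 of 10. asb-2, a gene for subunit b of the stalk, ranked 203 in replicate 1 and 29727 in replicate 2, the reverse of the order in the atp genes. gas-1, also of complex I, had a candidate in replicate 1 alone (rank 8932), and mev-1 had none in any list.

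Other mitochondrial gene lists, of 8, 19 and 70 genes, had no reproducible peak, where 0.881% of all genes had one. A pooled candidate lay at 34.9% of all genes. Coenzyme Q synthesis had a pooled candidate at 5 of 8 genes (62.5%), of which clk-1, a hydroxylase of that pathway, was the highest at rank 1844. The citric acid cycle with pyruvate dehydrogenase had one at 9 of 19 (47.4%), led by fum-1, the fumarase gene, at rank 4149 and aco-2, the aconitase gene, at rank 4334. Mitochondrial ribosomal protein genes had one at 25 of 70 (35.7%), near the share of all genes. Of the 70, 3 were in the upper 1000, where 2.31% of all genes were: mrpl-28 (rank 247), mrpl-23 (rank 360) and mrpl-15 (rank 900). The medians of the best pooled rank were 20921, 11426 and 9307 in these lists and 17829 over the 7 genes of the respiratory chain under other names, beside 3985 for the 18 respiratory chain genes of the naming rule and 13412 over all genes. Over the genes under other names the median was thus a lower rank than over all genes, although 2 of the 21, sco-1 and asb-2, were in the upper 1000.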

How the data were processed

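Chromatin immunoprecipitation with sequencing of GFP-tagged CCCH-3 was measured in 2 biological replicates. The authors' deposited files are region lists on ce11: candidates from each replicate, candidates from the alignments of both, and peaks thresholded by IDR, all made with a control, per the text records deposited beside them. The deposited signal value is a score of the authors' caller with no stated scale, used only to rank regions within a list. The deposited −log10 q-value was turned into a q-value. The sources used here do not name the aligner, the caller, the IDR threshold or the kind of control. Read depth is unknown.

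Gene starts came from Ensembl release 115 of WBcel235, which has the coordinates of ce11, and sequence from RefSeq. Summits (start plus offset) were counted in promoter windows with Python 3.11.15, pandas 2.3.3 and numpy 2.4.6, and plots were drawn with matplotlib 3.10.9. No test was run, since the labels give 1 group. Window counting was checked on simulated regions. Named genes were those with a reproducible peak, a pooled candidate (with signal value, rank and q-value in each list for the 10 highest) or a summit in both replicates, and, outside the naming rule, those with a reproducible peak or that share a best summit with a named gene. Values for the members below these, for cyc-2.1's neighbouring peak and for further pathway genes were chosen after seeing them. The members and lists were chosen with earlier results of these data known. Alternatives were other windows, nearest start, transcript starts, region overlap, unshared summits, each replicate alone and other rank limits.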

Additional observations from a re-analysis of the deposited data

How the results depend on the processing

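No paired analysis was possible because the labels give a single group and no test was run. Of 59 alternative values for 7 results, 35 stayed within 1.5 times the main count, or for the median rank within the SD of the 2 replicate medians (7540), and 24 did not. These 2 medians are themselves among the alternatives, and their SD exceeds the main median of 3985. Medians of 8634.5 and 8993 therefore counted as within it, so this count says little about the stability of the median rank. The alternatives for complexes I and V and for ranks 1 to 1000, and those of the count in all 3 lists without a replicate, were chosen after seeing the data.

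With 250 bp on either side of the start, 9 in place of 18 genes had a pooled candidate, 5 in place of 9 had one in all 3 lists, 3 in place of 6 ranked in the upper 1000 and 0 in place of 2 had a reproducible peak (16.3%, 4.75%, 1.06% and 0.416% of all genes in that window), since both summits lie 257 bp or more upstream. With 2000 bp upstream to 500 bp downstream, 34 genes had a pooled candidate (61.8%, against 56% of all genes), 23 had one in all 3 lists (41.8% against 33.6%), complex I rose from 2 to 10 of 22 (45.5%), and the median rank was 8634.5 in place of 3985. With any overlap of region and window 14 had one in all 3 lists (25.5% against 21.2%). With a summit given only to the nearest protein-coding start no gene (0) had a reproducible peak (0.591% of all genes did). With genes alone at their best summit, 10 had a pooled candidate (18.2% against 27.1%) with a median rank of 8993. Of these, 3 had one in all 3 lists (5.45% of the 55 against 11.5% of all genes) and 2 a rank of 1 to 1000 (against 1.34%). Among the 10, 1 was of complex I and 0 were of complex V, and 0 had a reproducible peak (against 0.365%). In the upper 5000 of the pooled list were 11 genes, in its upper 1000 were 6, and in the upper part of the reproducible list (0.5 of its regions) 0.

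With each replicate alone the count of genes with a candidate was 17 to 22, that of genes among the 218 highest regions 0 (replicate 1) to 2 (replicate 2, atp-5 and cox-5B), and the median rank 2926 to 13595. Genes of complex I numbered 5 (replicate 2) to 8 (replicate 1) of 22, and of complex V 4 (replicate 1) to 5 (replicate 2). Of all genes 34% had a candidate in replicate 1 and 35.2% in replicate 2. Those in the upper 1000 were 2 (replicate 1) to 7 (replicate 2), and those in the pooled list and 1 replicate 11 to 16. The cause was not tested.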
